A study of Homo sapiens with 6 samples.

Results

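B cell surface antigens are the membrane proteins by which B cells and B-cell lymphomas are recognised, and several of them are bound by therapeutic antibodies. The 9 genes described here were chosen by symbol: MS4A1, CD22, CD37, CD72, CD38, CD24, CR2, TNFRSF13B and TNFRSF13C. All 9 were found among the 65746 genes of the deposited count table, and 8 of them had enough reads to be among the 11525 genes tested. The cells were SU-DHL-8, an established human line of diffuse large B-cell lymphoma, labelled wild type. They received 15 µM beta-sitosterol, a plant sterol close to cholesterol in structure, or the solvent DMSO as control, and RNA was taken after 24 h from 3 libraries per group. The labels speak of replicate experiments of 1 cell line without saying how separate they were, so p-values measure only the spread between these libraries, which may be partly technical.

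Signals from the B cell receptor are tuned at the surface. The complement receptor CR2 (CD21) works with CD81 and IFITM1 in a coreceptor that lowers the threshold for activation, while CD22, a lectin that binds sialic acid, and CD72, a C-type lectin, carry inhibitory tyrosine motifs that recruit phosphatases. MS4A1 encodes CD20, the target of rituximab, CD37 is a tetraspanin, CD38 is an enzyme that consumes NAD outside the cell and the target of daratumumab, and CD24 is a small sialylated protein held by a lipid anchor. TNFRSF13C encodes BAFF-R, a receptor for the survival cytokine BAFF, and TNFRSF13B encodes TACI, which binds BAFF and the related cytokine APRIL.

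After beta-sitosterol, MS4A1, CR2 and CD37 were higher and CD24 and CD38 were lower, whereas CD22, CD72 and TNFRSF13C did not pass the test. MS4A1 was 4.68-fold higher and CR2 3.61-fold higher, both starting from low levels, and CD37 was 1.57-fold higher. CD24 was 2.34-fold lower and CD38 1.65-fold lower. Of the 8 tested genes 3 were thus called higher and 2 lower by the quasi-likelihood test of edgeR at an adjusted p under 0.05, and the same 5 genes were those whose groups did not overlap. Across all tested genes 40.8% were called, 19.0% higher and 21.8% lower, and the groups did not overlap for 56.1%, with treated libraries higher for 27.0% and lower for 29.1%. The median log2 fold change was -0.02 for the 8 genes and -0.039 for all genes tested. The list itself was given no test.

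Libraries held 26453101 to 35565163 counts. Treated libraries correlated with one another at 0.994 (log2 CPM across genes), DMSO libraries at 0.972 to 0.991, DMSO replicate 2 standing furthest from the rest. Where a call named below changed without that library, the value without it is given. Markers of other cell types were mostly at or near 0: 6 of 8 T cell, 4 of 5 NK cell, 5 of 7 myeloid and 6 of 6 epithelial and stromal markers stayed under 1 CPM (counts scaled to a common library size) in every library, with CD3E, CD3G, CD2, FCGR3A, S100A8 and HBB at 0 in all 6. The summed T cell markers ranged from 9.93 to 12.5 CPM in DMSO and from 7.20 to 8.22 CPM after treatment, with IL7R called lower and CD247 higher, the latter call lost in 5 of 15 alternatives (among them without DMSO replicate 1 or treated replicate 2 or 3). The NK cell sum was 1.63 to 4.33 CPM in DMSO and 7.71 to 8.97 CPM after treatment, with NKG7 called higher except on the TPM scales. The epithelial and stromal sum was 0.147 to 0.173 CPM and 0.757 to 1.96 CPM, with COL1A1 at 0 counts in each DMSO library and 18, 12 and 25 in the treated ones. The myeloid sum was 4.86 to 7.13 CPM and 6.38 to 8.40 CPM with neither of its 2 tested genes called, and that of plasma cell genes, which B cell lines also express in part, was 369 to 437 CPM and 254 to 268 CPM, with MZB1 called lower and PRDM1 higher. The call of PRDM1 was lost in 5 of 15 alternatives, among them without DMSO replicate 1 or any 1 treated library. The part of these markers in the results below was not tested. The B cell markers CD79A, CD79B, PAX5, EBF1 and BLK were detected in every library. In bulk RNA, fewer cells that express a gene and less RNA per cell cannot be told apart.

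RefSeq promoter sequences (GRCh38.p14, 250 bases before to 50 after the start) were held for 6 of the 9 genes. MS4A1, CD37 and TNFRSF13C were not matched. Searched on both strands were ATTTGCAT, the octamer bound by POU2F2 with POU2AF1, and GAGGAA, a core bound by ETS factors. Next came GGGACTTT, part of an NF-kB site, TCCC followed after 2 free bases by GGGA, the EBF1 type, and CACGTG, an E-box form. Other E-box forms, such as CAGGTG, were not searched and are not marked. No 2 of the matches found in the 6 genes overlapped. They occurred in 1.77%, 27.9%, 1.14%, 1.21% and 7.26% of the 35116 promoters of the same length. Of the 4 promoters printed here, those of CR2 (called higher) and of CD24 and CD38 (called lower) belong to genes that changed, and that of CD72 to a gene not called; capitals mark every match. CR2 lies on the plus strand of chromosome 1 (chr1:207454078-207454377) and its window held CACGTG beginning at position -45 from the start. CD24 lies on the minus strand of chromosome 6 and has 3 listed starts, of which the third (chr6:106973990-106974289) held an EBF1-type match at -177, and the other two held none. The window of CD38, on the plus strand of chromosome 4 (chr4:15778078-15778377), held none of the 5 motifs. That of CD72, on the minus strand of chromosome 9 (chr9:35618364-35618663), held GAGGAA at -190 and its reverse complement at -45. On that strand the RefSeq span of CD72 begins at 35646857, so this window lies at a start inside the span. The windows of CD24 likewise lie inside its span, which begins at 106976855.
CR2: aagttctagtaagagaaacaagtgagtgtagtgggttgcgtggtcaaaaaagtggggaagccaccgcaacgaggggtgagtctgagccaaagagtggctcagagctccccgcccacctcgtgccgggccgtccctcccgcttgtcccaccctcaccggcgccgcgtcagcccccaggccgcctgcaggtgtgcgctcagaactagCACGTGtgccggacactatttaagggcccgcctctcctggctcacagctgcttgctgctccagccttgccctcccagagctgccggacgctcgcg
CD24: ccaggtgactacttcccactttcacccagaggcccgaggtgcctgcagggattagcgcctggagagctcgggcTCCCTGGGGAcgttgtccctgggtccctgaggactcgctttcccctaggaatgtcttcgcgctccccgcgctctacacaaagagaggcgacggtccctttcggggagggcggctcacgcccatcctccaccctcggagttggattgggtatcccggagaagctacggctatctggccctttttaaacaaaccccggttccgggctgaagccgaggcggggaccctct
CD38: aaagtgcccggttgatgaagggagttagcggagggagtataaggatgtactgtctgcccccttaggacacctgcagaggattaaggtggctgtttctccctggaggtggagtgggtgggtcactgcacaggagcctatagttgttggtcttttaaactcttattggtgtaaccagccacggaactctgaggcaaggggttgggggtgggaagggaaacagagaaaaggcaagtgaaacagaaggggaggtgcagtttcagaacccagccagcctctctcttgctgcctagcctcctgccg
CD72: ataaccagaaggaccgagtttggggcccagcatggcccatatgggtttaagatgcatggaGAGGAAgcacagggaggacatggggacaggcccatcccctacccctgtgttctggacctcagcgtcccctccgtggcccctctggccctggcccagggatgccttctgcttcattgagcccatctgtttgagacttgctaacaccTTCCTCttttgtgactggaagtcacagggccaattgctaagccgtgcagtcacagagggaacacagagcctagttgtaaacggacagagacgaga

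The windows of CD22 and TNFRSF13B held no match. A match is a description of the letters only, and the data hold no measurement of binding.

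By length-scaled level, CD38, CD24, CD22, CR2 and TNFRSF13B kept the same rank in all 6 libraries, and the other genes changed places. In the deposited TPM (transcript abundance scaled by the authors for gene length and library), CD38 was the highest of the 9 in all 6 libraries, with DMSO replicates 1 to 3 at 307, 228 and 262 TPM and beta-sitosterol replicates 1 to 3 at 137, 138 and 128 TPM. CD24 was second in every library. It stood at 72.1, 45.9 and 65.3 TPM in DMSO and at 23.4, 21.8 and 19.3 TPM after treatment. CD37 and CD72 followed and changed places: CD72 was above CD37 in DMSO replicate 2 (11.6 against 9.34 TPM), and CD37 was above CD72 in the other 5 libraries, by as little as 16.3 against 16.03 TPM in DMSO replicate 1. These neighbours did not differ beyond their spread in DMSO (14.7 ± 4.73 and 15.1 ± 3.19 TPM, SD, n = 3), whereas after treatment their ranges were apart (17.7 to 19.9 and 11.7 to 13.04 TPM). CD22 came next throughout, at 7.26 ± 1.78 TPM in DMSO and 5.86 ± 0.207 TPM after treatment. TNFRSF13C stood above MS4A1 in all 3 DMSO libraries and under it in all 3 treated ones. CR2 came below both and TNFRSF13B last in every library. CD38 alone made up 69.4% to 75.3% of the summed TPM of the 9 genes in DMSO and 66.5% to 68.3% after treatment. The share of MS4A1 lay between 0.260% and 0.287% in DMSO and between 1.79% and 2.17% after treatment. That of CD24 lay between 15.2% and 17.3% in DMSO and between 10.1% and 11.4% after treatment. The TPM listed in the file cover a smaller part of the library total in DMSO replicate 2 (39.5%) than in the other libraries (57.02% to 69.2%), so an order within a library holds on this scale while a change between libraries is read from the counts.

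**Figure D1:**
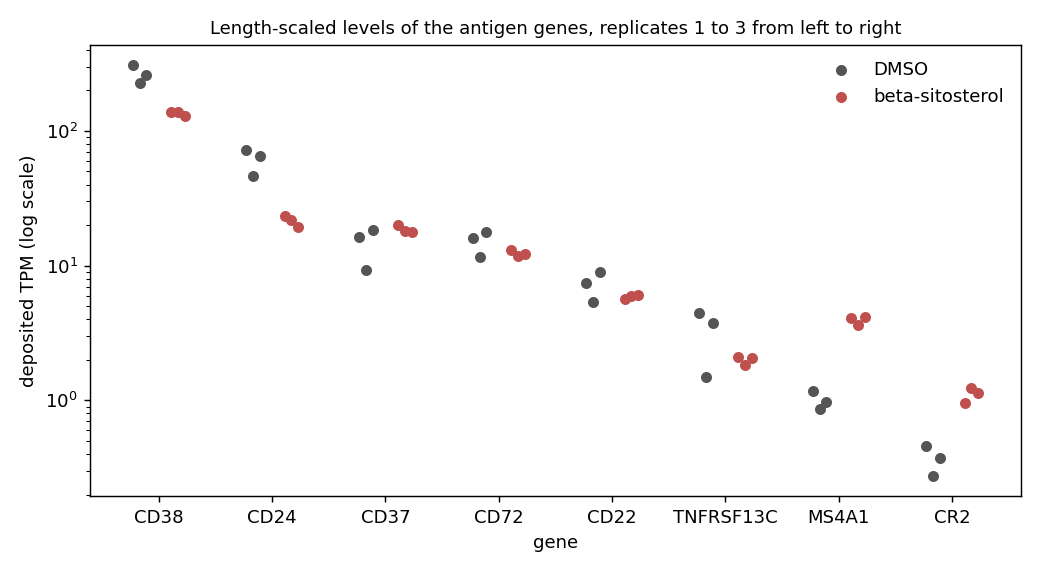
Deposited TPM (log axis) of the 8 tested genes in each of the 6 libraries, grey for DMSO and red for beta-sitosterol, replicates 1 to 3 from left to right. CD38 is highest and CR2 lowest of the 8 in every library, and MS4A1 lies under TNFRSF13C in DMSO and above it after treatment.

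MS4A1 (ENSG00000156738, chromosome 11, 60455847 to 60470752) had the largest change of the 8 tested genes. DMSO libraries held 134, 145 and 114 reads of it and treated libraries 548, 446 and 538, which is 3.93, 4.55 and 3.29 CPM against 18.6, 16.9 and 19.6 CPM. Every treated library was above every DMSO library, the lowest treated value being several times the highest DMSO value. The means were 3.92 ± 0.629 and 18.3 ± 1.36 CPM (SD, n = 3 per group), and the log2 fold change was 2.23 ± 0.17 (SE; 95% interval 1.84 to 2.61; edgeR adjusted p = 0.000111). By unadjusted p it was number 63 of the 11525 tested genes. MS4A7, the other tested gene of the MS4A family, was also called higher, at 0.252 ± 0.117 and 0.942 ± 0.168 CPM (log2 fold change 1.90 ± 0.39, edgeR adjusted p = 0.00578). It had few reads, 8, 12 and 5 in DMSO and 32, 20 and 27 after treatment. The filter at 1 CPM in 3 libraries left MS4A7 out, and the call held in the other 14 alternatives. MS4A2, MS4A3, MS4A4A and MS4A6A were listed at 0 in all libraries. MS4A14, too low to be tested, had 0 reads in each DMSO library and 8, 2 and 12 in the treated ones. With no low-count filter, the only alternative that kept it, MS4A14 was called higher.

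CR2 (ENSG00000117322, chromosome 1, 207454328 to 207489892), whose promoter with the CACGTG match is printed above, had few reads. They numbered 41, 36 and 34 in DMSO and 100, 118 and 114 after treatment, or 1.20, 1.13 and 0.981 CPM against 3.39, 4.46 and 4.15 CPM. The groups did not overlap, and replicates within a group lay close together. The log2 fold change was 1.85 ± 0.22 (SE; 95% interval 1.36 to 2.35; edgeR adjusted p = 0.000482). On the log2(TPM + 1) scale, which shrinks the change of low genes, it was 0.62, and that of MS4A1 1.30, both still called with limma (adjusted p = 0.00393 and 0.00116).

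Of the partners of CR2 in the coreceptor, IFITM1 was called and CD81 was not. IFITM1, a small membrane protein of the coreceptor complex, was called higher, from 9.22 ± 0.121 CPM in DMSO to 20.6 ± 2.44 CPM after treatment (log2 fold change 1.16 ± 0.14, edgeR adjusted p = 0.00053). CD81, a tetraspanin, stood at 780, 379 and 975 CPM in DMSO and 510, 503.8 and 530.05 CPM after treatment (log2 fold change -0.47 ± 0.29, edgeR adjusted p = 0.228). It was lowest in DMSO replicate 2. Without that library CD81 was called lower (log2 fold change -0.77, edgeR adjusted p = 4.13e-06). Among other complement receptors and regulators, CD55 and CD59, which protect cells from complement, were called higher with values of 36.2 ± 14.3 and 62.7 ± 3.70 CPM and of 1.64 ± 0.729 and 3.29 ± 0.343 CPM, and CD46 was not called. CD55 (edgeR adjusted p = 0.0311) missed the threshold without DMSO replicate 1 or 3 or without any 1 of the treated libraries, at 0.0585 to 0.122, and narrowly on log2(TPM + 1), at 0.0502. CD59 (edgeR adjusted p = 0.0405) missed it without DMSO replicate 1 or any 1 treated library, at 0.0785 to 0.127, and on both TPM scales, at 0.222 and 0.247. CR1 was listed at 0.

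CD79A, a chain of the B cell receptor itself, was called higher, at 371 ± 48.2 and 767 ± 31.3 CPM (log2 fold change 1.05 ± 0.13, edgeR adjusted p = 0.000535). Its partner CD79B was not called, at 787, 498 and 1013 CPM in DMSO and 976, 936 and 1003 CPM after treatment (log2 fold change 0.34 ± 0.23, edgeR adjusted p = 0.256). It too was lowest in DMSO replicate 2. With that library left out the log2 fold change came to 0.11 (edgeR adjusted p = 0.367), and without DMSO replicate 3 it was 0.64 and CD79B was called higher (edgeR adjusted p = 0.0287). CD79A missed the threshold on log2(TPM + 1) and log2(TPM + 0.1), at limma adjusted p of 0.0691 and 0.0669.

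CD37 (ENSG00000104894, chromosome 19, 49335406 to 49340606), a tetraspanin of mature B cells, stood at 48.6, 43.7 and 55.04 CPM in DMSO and at 81.2, 75.2 and 74.5 CPM after treatment. The groups did not overlap. The log2 fold change was 0.65 ± 0.13 (SE; 95% interval 0.36 to 0.94; edgeR adjusted p = 0.00439). On deposited TPM CD37 was not called, with 0.37 on log2(TPM + 1) and a limma adjusted p of 0.315; its TPM in DMSO replicates 1 to 3 were 16.3, 9.34 and 18.4. Of its exon bases 7.67% are shared with TEAD2 on the other strand (GENCODE v29), a gene with 0 to 11 reads per library.

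Among 12 other tetraspanin genes 6 were higher and 2 lower, with a median log2 fold change of 0.75, against the 19.0% and 21.8% of all genes. The tetraspanin CD81, given above with the coreceptor, is not among the 12. Its log2 fold change was -0.47, and it was called lower only without DMSO replicate 2. TSPAN33, a tetraspanin of activated B cells, went from 4.53 ± 1.53 CPM in DMSO to 24.7 ± 1.56 CPM after treatment (log2 fold change 2.45 ± 0.25, edgeR adjusted p = 0.000287). TSPAN31 was also higher, at 13.4 ± 0.821 and 34.8 ± 1.35 CPM, and CD9 was lower, at 55.1 ± 1.42 and 25.99 ± 2.01 CPM. CD63, TSPAN13, TSPAN4 and CD151 made up the other higher genes and TSPAN14 the other lower one, and TSPAN13 and CD151 were not called on the TPM scales. CD53, CD82, TSPAN3 and TSPAN17 were not called, CD82 passing as higher only without DMSO replicate 3.

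CD24 (ENSG00000272398, chromosome 6, 106969831 to 106976855) had the largest fall of the 8. Its level was 118, 118 and 107 CPM in DMSO and 52.4, 49.6 and 44.4 CPM after treatment, and the highest treated library lay well under the lowest DMSO one. The log2 fold change was -1.23 ± 0.12 (SE; 95% interval -1.50 to -0.95; edgeR adjusted p = 0.000243). CD24 has processed copies elsewhere in the genome, and how reads that fit several places were counted is not given in the sources used here, so its level is less certain than that of the other genes. SIGLEC10, the inhibitory lectin that binds CD24, was not called, at 4.24 ± 0.398 and 4.04 ± 0.50 CPM.

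CD38 (ENSG00000004468, chromosome 4, 15778328 to 15853232) was the most deeply read of the 9, with 16913 to 21151 reads in DMSO and 9238 to 10291 after treatment. Its level was 572, 663 and 488 CPM in DMSO and 349, 358 and 336 CPM after treatment. DMSO replicate 2 was the highest library, and all 3 treated libraries lay under all 3 DMSO libraries. The log2 fold change was -0.72 ± 0.13 (SE; 95% interval -1.03 to -0.42; edgeR adjusted p = 0.00337), and -0.61 without DMSO replicate 2 (edgeR adjusted p = 2.12e-05). Other surface enzymes of NAD and adenosine metabolism, BST1, ENPP1 and ENTPD1, were not called, and NT5E was too low to be tested. Without DMSO replicate 2 ENPP1 was called higher (log2 fold change 0.38, edgeR adjusted p = 0.0337).

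**Figure D2:**
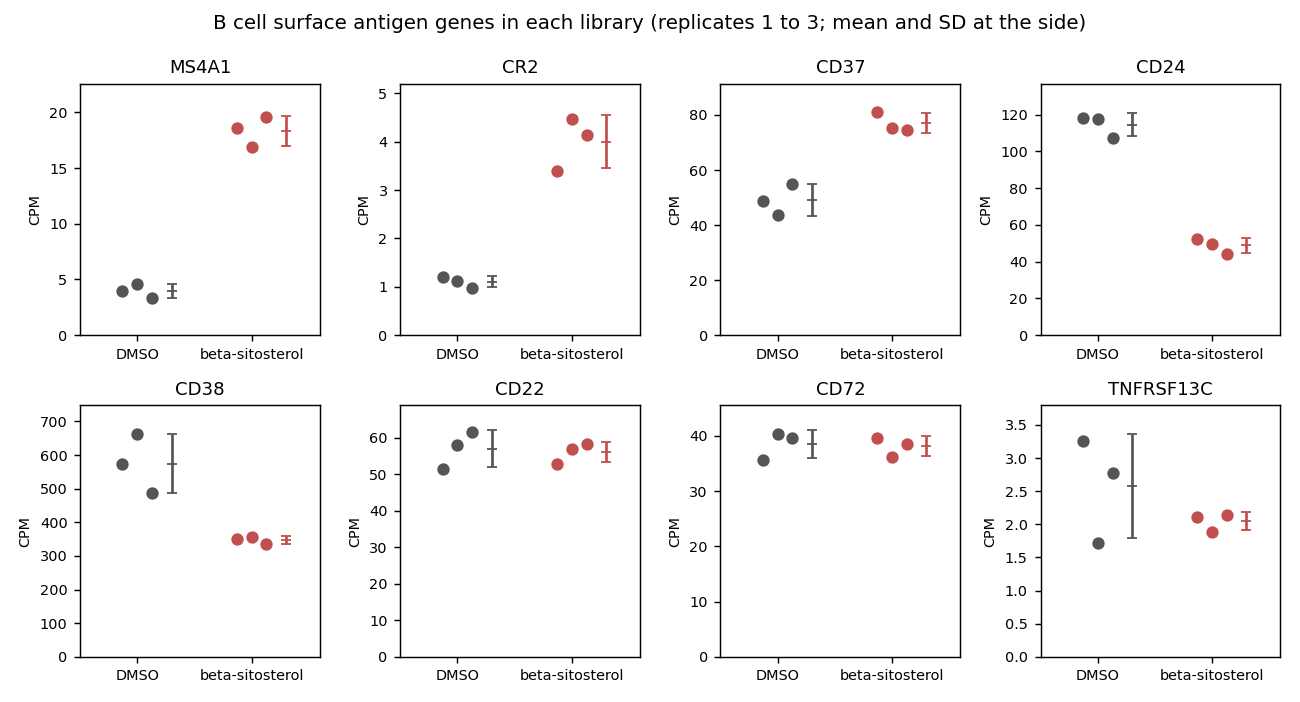
CPM of the 8 tested genes in each library (points, replicates 1 to 3 from left to right; linear axes from 0) with the mean and SD of 3 libraries beside them, grey for DMSO and red for beta-sitosterol. The groups are apart for MS4A1, CR2, CD37, CD24 and CD38 and overlap for CD22, CD72 and TNFRSF13C.

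CD22 (ENSG00000012124, chromosome 19, 35329187 to 35347361) stood at 51.5, 57.9 and 61.5 CPM in DMSO and 52.9, 56.9 and 58.3 CPM after treatment. The 3 treated values lay inside the DMSO range. The log2 fold change was -0.02 ± 0.12 (edgeR adjusted p = 0.884), and its 95% interval, -0.30 to 0.25, spans 0.814-fold to 1.19-fold. CD72 (ENSG00000137101, chromosome 9, 35609982 to 35646857) stood at 35.7, 40.4 and 39.7 CPM in DMSO and 39.7, 36.2 and 38.6 CPM after treatment, again overlapping. Its log2 fold change was -0.02 ± 0.12 (edgeR adjusted p = 0.926) with an interval from 0.822-fold to 1.19-fold. The sign of both small differences turned to positive with RLE size factors. For CD72, 15.0% of exon bases are shared with TESK1 on the other strand, which had 590, 699 and 782 reads in DMSO and 366, 338 and 326 after treatment; whether counting used strand is not given in the sources used here.

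Reads of the other genes were also set against those of CD22 within each library, which needs no library scaling. MS4A1 had 7.64, 7.85 and 5.35 reads per 100 CD22 reads in DMSO and 35.2, 29.6 and 33.6 after treatment. CR2 had 1.59 to 2.34 and 6.41 to 7.84. CD37 had 75.4 to 94.4 and 128 to 153. CD24 had 174 to 229 and 76.2 to 99.1, and CD38 had 793 to 1145 and 577 to 660. For each of these 5 genes the groups were apart in the ratio, while CD72 ran from 64.4 to 69.7 in DMSO and from 63.7 to 74.98 after treatment. TNFRSF13C ran from 2.98 to 6.32 in DMSO and from 3.32 to 3.98 after treatment. CD22 hardly changed in CPM, so the ratios largely repeat the CPM contrast and are no separate support. The ratio of CD38 to MS4A1 in TPM was 262, 263 and 267 in the DMSO libraries and 33.8, 38.2 and 30.9 in the treated ones.

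A list of 6 genes held effectors of inhibitory motifs like those of CD22 and CD72 and enzymes that add sialic acid. Of these 6 genes, 5 were called lower and 0 higher (median log2 fold change -0.769), against 21.8% and 19.0% of all tested genes. The lower genes numbered 4 in 11 of 15 alternatives. ST6GAL1, which makes the sialylated glycan that CD22 binds, went from 198 ± 12.3 CPM to 89.9 ± 2.04 CPM with treatment (log2 fold change -1.14 ± 0.11, edgeR adjusted p = 0.000236). ST3GAL1, another sialyltransferase, went from 33.02 ± 1.62 to 15.8 ± 1.22 CPM, and the kinase gene LYN, which phosphorylates the inhibitory motifs, from 58.7 ± 6.33 to 32.3 ± 2.78 CPM. The phosphatase genes INPP5D and PTPN6 were the other lower ones, and PTPN11 was not called. It was PTPN6 (edgeR adjusted p = 0.0474) whose call was lost in those 11, among them the replicate block (edgeR adjusted p = 0.0661), RLE factors, DESeq2 and leaving out DMSO replicate 3 or any 1 treated library. SEMA4D, the ligand of CD72, fell from 156 ± 8.69 CPM to 55.7 ± 3.22 CPM with treatment (log2 fold change -1.49 ± 0.11, edgeR adjusted p = 0.000115). CD69, an activation antigen of the lectin family, rose from 14.1 ± 3.45 to 28.6 ± 2.43 CPM, though it missed the threshold on both TPM scales (limma adjusted p up to 0.0849). CLEC2D was called lower at an edgeR adjusted p of 0.0457 and missed the threshold in 7 of 15 alternatives, among them RLE factors and leaving out DMSO replicate 1 or any 1 treated library.

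Tested were 9 further Siglecs and receptors of families with inhibitory members. Of these 1 was higher and 2 were lower, against 19.0% and 21.8% of all tested genes. FCRL2 was higher, from 8.30 ± 0.675 to 19.1 ± 2.25 CPM. FCRL1 and LILRB1 were lower, from 43.2 ± 4.87 to 22.4 ± 1.36 CPM and from 26.4 ± 1.55 to 16.5 ± 1.99 CPM. FCGR2B, the inhibitory receptor for antibody complexes, was not called, at 8.27 ± 1.25 and 9.62 ± 1.06 CPM. SIGLEC6, FCRL4 and CD300A were listed at 0. The median log2 fold change of the list was 0.22.

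TNFRSF13C (ENSG00000159958, chromosome 22, 41922032 to 41926806), the BAFF receptor, had 111, 55 and 96 reads in DMSO and 62, 50 and 59 after treatment, or 3.26, 1.73 and 2.77 CPM against 2.10, 1.89 and 2.15 CPM. DMSO replicate 2 was the lowest of all 6 libraries and made the groups overlap. The log2 fold change was -0.34 ± 0.27 (SE; 95% interval -0.94 to 0.27; edgeR adjusted p = 0.338). Without DMSO replicate 2 it was -0.56 and TNFRSF13C was called lower (edgeR adjusted p = 0.0362), which would make 3 lower and 3 higher of the 8 genes. TNFRSF13B (ENSG00000240505, chromosome 17, 16939081 to 16972118), the receptor TACI, had 1 read in DMSO replicate 3 and 0 in the other 5 libraries. A count of 0 allows up to 3 reads, or 0.0881 to 0.114 CPM in the 5 libraries at 0, so a level under that could have been missed there. The related receptor gene TNFRSF17 (BCMA) was low as well, at 1.19 ± 0.226 and 1.61 ± 0.457 CPM (edgeR adjusted p = 0.265).

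Of 9 tested genes around these receptors 1 was higher and 3 were lower (median log2 fold change 0.0239), against 19.0% and 21.8% of all genes. NFKB2, which encodes the precursor of the NF-kB subunit p52 that BAFF-R signalling releases, went from 47.3 ± 9.65 CPM to 240.2 ± 7.37 CPM with treatment (log2 fold change 2.34 ± 0.16, edgeR adjusted p = 8.87e-05). MAP3K14, the kinase that drives this release, was lower at 33.1 ± 8.24 and 18.04 ± 0.783 CPM, and TRAF3, the adaptor that keeps that kinase low, was lower at 42.97 ± 7.97 and 28.5 ± 1.44 CPM. TRAF6 was the other lower gene (edgeR adjusted p = 0.0496), and its call was lost in 8 of 15 alternatives, RLE factors, library totals, voom and the filter at 1 CPM among them. The lower genes numbered 1 without DMSO replicate 1 or any 1 treated library and on both TPM scales, and 4 without DMSO replicate 2, and the higher ones 2 without DMSO replicate 1 or 3. On both TPM scales MAP3K14 and TRAF3 missed the threshold (limma adjusted p up to 0.0636 and 0.103), and TRAF3 also without DMSO replicate 1 or any 1 treated library (edgeR adjusted p = 0.0555 to 0.0788). The ligand gene TNFSF13 (APRIL) was not called except as lower without DMSO replicate 2 (log2 fold change -0.71, edgeR adjusted p = 0.043), and TNFSF13B (BAFF) was too low to be tested.

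Of 15 further B cell surface antigens that were tested, 5 were higher and 4 lower (median log2 fold change 0.362), and 40.8% of all genes were called. LY9, a receptor of the SLAM family, went from 16.3 ± 0.184 CPM to 38.7 ± 2.21 CPM with treatment (log2 fold change 1.25 ± 0.12, edgeR adjusted p = 0.000232), and CD83, an activation antigen, from 4.29 ± 0.702 to 9.30 ± 0.199 CPM, the latter missing the threshold on log2(TPM + 1) and log2(TPM + 0.1) (limma adjusted p up to 0.0728). IL4R, the interleukin 4 receptor chain, was lower at 56.8 ± 5.05 and 31.0 ± 3.91 CPM. The other higher genes were CD27, CD52 and CD40, and the other lower ones CD180, CD84 and IL21R. The call of IL21R was lost in 9 of 15 alternatives, the replicate block included, and that of CD84 without treated replicate 1 or 3, which left 2 lower genes. Without DMSO replicate 2, FCER2 and CD47 (edgeR adjusted p = 0.03 and 0.00816) made 7 higher genes, and on both TPM scales 3 were higher and 3 lower.

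Of 13 tested transcription factor genes that direct B cell programmes, 11 were called lower and 0 higher, with a median log2 fold change of -1.29, against 21.8% lower among all genes and a median of -0.039. PAX5, the factor that holds B cell identity, went from 610, 692 and 677 CPM in DMSO to 208, 198 and 217 CPM (log2 fold change -1.67 ± 0.11, edgeR adjusted p = 8.07e-05). BACH2, a repressor of plasma cell fate, went from 359 ± 44.05 to 113 ± 3.92 CPM, and POU2AF1, the coactivator at octamer sites, from 295 ± 30.2 to 109 ± 4.07 CPM. ETS1, TCF3, IKZF1, EBF1, IRF4, POU2F2, SPIB and FOXO1 were the other lower genes; SPI1 and IKZF3 were not called. Lower genes numbered 10 or 11 under each of the 15 alternatives, FOXO1 being lost without any 1 treated library and SPIB on the TPM scales. IRF8 had 2, 0 and 0 reads in DMSO and 12, 8 and 14 after treatment and was left out of the test by the filter. In the 5 alternatives that kept it (no filter, or without any 1 DMSO library or treated replicate 2) IRF8 was called higher, which made 1 higher gene of 14.

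**Figure D3:**
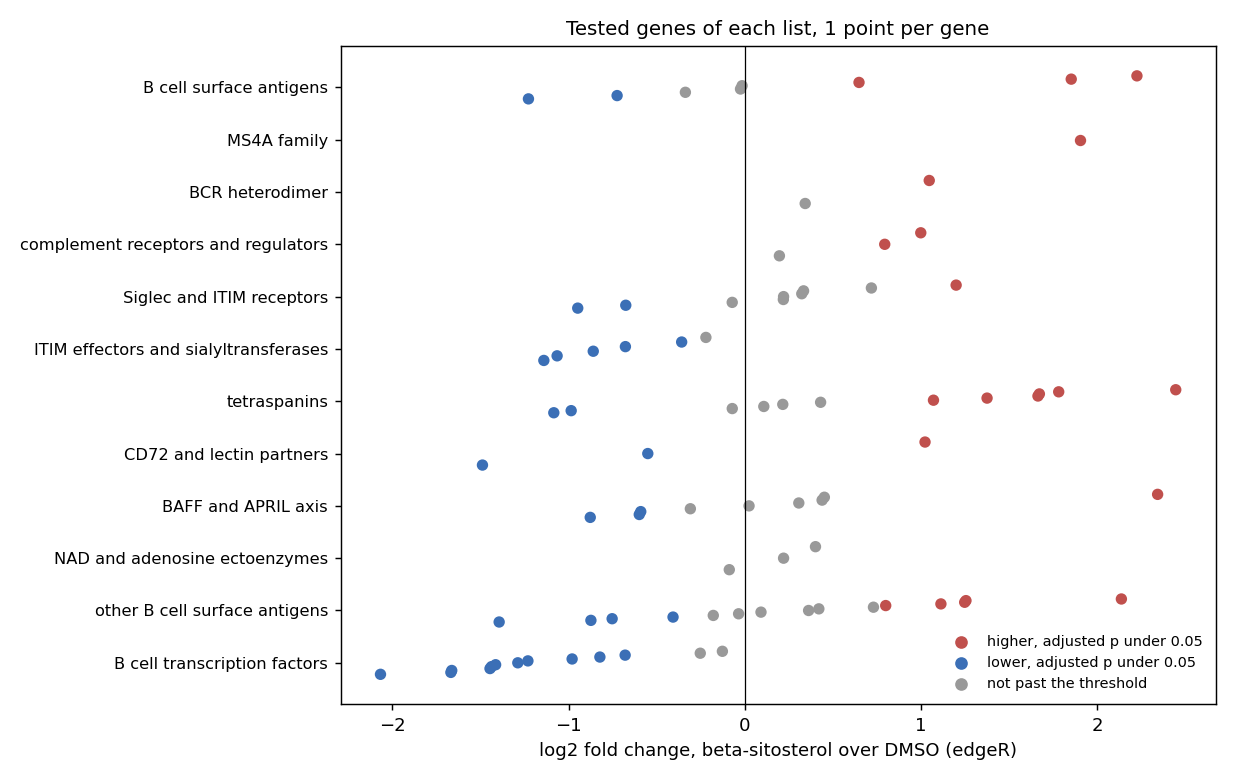
Log2 fold change of beta-sitosterol over DMSO for each tested gene (1 point per gene) of the B cell surface antigens and of related lists (the coreceptor genes are not drawn); red and blue points are called higher and lower at an edgeR adjusted p under 0.05, grey ones are not. All 13 transcription factor genes lie below 0, and the 8 surface antigens lie on both sides of it.

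Genes whose course over the 6 libraries was nearest to that of an antigen were found by the Euclidean distance of centred log2 CPM, as a description; most of that course is the difference between the groups. Nearest to MS4A1 were SAT1 and ULBP2 (distance 0.255 and 0.261 log2 units), and nearest to CR2 were HIPK2 and TATDN1 (0.164 and 0.236), HIPK2 with very few reads. Nearest to CD37 were CSRNP2 and RETSAT, to CD24 CYTH3 and FAM168A, and to CD38 STK38 and CDYL. CD22 lay nearest to ZNF331 and LRRC41, CD72 to METTL22 and BTN2A1, and TNFRSF13C to PGPEP1 and RMI2.

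**Figure D4:**
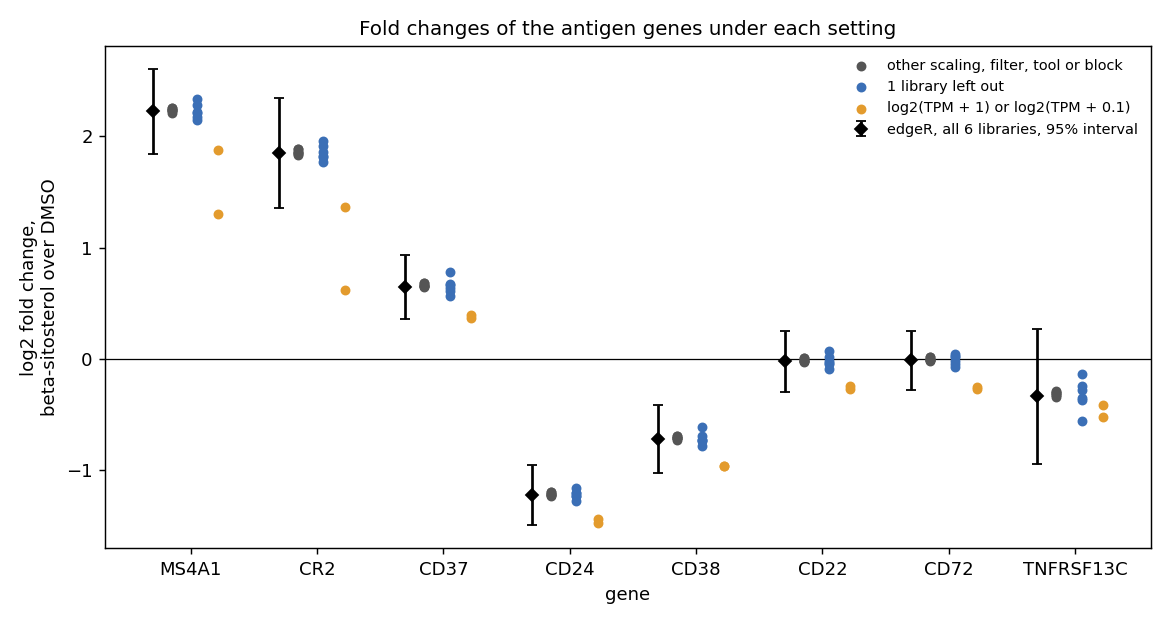
Log2 fold change of the 8 tested genes with all 6 libraries in edgeR (black diamonds, 95% interval) and under each alternative (points: other scaling, filter, tool or replicate block in grey, 1 library left out in blue, TPM scales in orange). MS4A1, CR2 and CD37 stay above 0 and CD24, CD38 and TNFRSF13C below 0 in all 15 alternatives, and CD22 and CD72 lie on both sides.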

How the data were processed

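RNA of 6 libraries was read as a deposited table of raw read counts per gene, with no normalization by the authors, and a deposited table of TPM, which the authors scaled for length and library. Tools listed in the submitters' processing notes, without roles, are STAR 2.7.10, StringTie 2.2.1, fastp 0.23.2 and featureCounts 2.0.1. The 61 rows whose gene symbol had already occurred were left out. Counts were tested in R 4.3.3 with edgeR 4.0.16 (TMM, filterByExpr, quasi-likelihood F test, two-sided, Benjamini-Hochberg over all tested genes, treatment as the only term). CPM use TMM factors and are given as mean ± SD. The SE was derived from the F statistic. Intervals of fold changes are at 95%, and limits from 0 reads cover counting error only.

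All 9 genes were named, with up to 3 called genes per related list by smallest p and CD79A, CD79B, CD81 and TNFRSF17; any other listed gene was named after its values were seen. The genes, lists and tests were chosen with earlier results of these data known. Alternatives used RLE factors, library totals, other filters, DESeq2 1.42.0, limma 3.58.1 (voom, or log2 TPM with 1 or 0.1 added), a replicate block and each library left out. Tests were tried on simulated counts first. Positions are from RefSeq on GRCh38.p14 and overlaps from GENCODE v29. Protein sequences were not used here, and some genes are not reported here.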

Additional observations from a re-analysis of the deposited data

How the results depend on the processing

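The 5 calls among the 8 tested antigen genes (3 higher, 2 lower) were made under every count-based alternative with all 6 libraries, and under each left-out library, with TNFRSF13C as a further lower call without DMSO replicate 2. With a replicate block they were again 3 higher and 2 lower, and 4743 calls over all genes against 4697 without it. Same-numbered libraries deviated together with correlations of 0.039, 0.10 and 0.15, and unlike-numbered ones with lower values, -0.14 to 0.025. The labels do not say that a number marks a shared day, so the numbers were not taken as pairs. Whether they mark pairs was not settled. On log2(TPM + 1) and log2(TPM + 0.1), where the median of all genes lay at -0.19 and -0.26 against -0.039, calls over all genes were 2939 (713 higher) and 2935 (691 higher), and higher calls were 24.3% and 23.5% of calls against 46.5%. On these scales CD37 was not called, at 0.37 and 0.39. Leaving out 1 library gave 3094 to 6640 calls over all genes and 1593 to 3549 lower ones. CD22 turned to 0.0040 with RLE factors and 0.0039 with DESeq2, and CD72 to 0.014 with each; leaving out 1 library gave -0.097 to 0.072 for CD22 and -0.074 to 0.043 for CD72. The cause was not tested.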
